A study of Capra hircus with 10 samples.

Results

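The mature miRNA of 5 precursors, miR-21, miR-22, miR-186, miR-191 and miR-425, were described in the mammary gland of lactating goats. They were found by name, with or without an arm suffix and whatever the species prefix, and they gave 10 entries, the 5p and the 3p arm of each precursor, of 1804 miRNA listed. The group was chosen by abundance, as mean counts seen in these same libraries, so the levels below are a description and were not tested. The tissue came from 10 Alpine goats at peak lactation, which were 48 ± 2 days after kidding at the beginning of the experiment and were killed later. All goats had first received an orchard-grass hay diet for 2 weeks, after which 4 Control goats (L01, L04, L06 and L10) went on eating it at will and 6 food-deprived goats (FD, all the other libraries from L02 to L09) were left without food for 48 h. Each goat gave 1 small RNA library, so replicates are separate animals. The libraries held from 4495512 to 7506955 counts in Control goats (median 5585277.5) and from 5674119 to 9842009 in FD goats (median 7203585). Whole gland was sampled, so fewer cells of a type and less miRNA per cell cannot be told apart.

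A miRNA is cut from a hairpin transcript, first in the nucleus by Drosha and then in the cytoplasm by Dicer. The duplex that results has a 5p and a 3p strand, of which usually a single guide strand is kept in an Argonaute protein while the other is degraded. The guide strand recognises messenger RNA mostly through its seed, the bases 2 to 8 from the 5′ end, and represses them. miR-21 is widely expressed and is raised in many tumours and in tissue repair. miR-22 has been linked to lipid metabolism, hormone signalling and cardiac growth. miR-191 and miR-425 are neighbours that are usually described as a cluster, and miR-191 is often taken as a reference in miRNA assays. miR-186 lies in an intron of ZRANB2 in mammals. In the goat gene table of RefSeq (assembly ARS1.2, used here for names and order alone), MIR186 lay within ZRANB2 and MIR425 within DALRD3. MIR191 lay between NDUFAF3 and DALRD3, on the same chromosome 22 as MIR425, with the start of 1 gene, DALRD3 itself, between the pair. MIR22 lay between TLCD2 and WDR81.

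The sequences of the 10 arms, as the authors deposited them, are shown because the seed decides which messengers a miRNA can pair with. They are written 5′ to 3′ with the seed in capitals.
miR-21-5p: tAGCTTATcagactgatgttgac
miR-21-3p: cAACAGCAgtcgatgggctgt
miR-22-3p: aAGCTGCCagttgaagaac
miR-22-5p: aGTTCTTCagtggcaagcttt
miR-186-5p: cAAAGAATtctccttttgggct
miR-186-3p: cCCAAAGGtgaattttttgg
miR-191-5p: cAACGGAAtcccaaaagcagct
miR-191-3p: cTGCGCTTggatttcgttccc
miR-425-5p: aATGACACgatcactcccgttga
miR-425-3p: cATCGGGAatgtcgtgtccgcc

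The 10 arms had 10 distinct seeds, so these miRNA are not a seed family. Among the 1804 miRNA listed, a single other entry had a seed of theirs. It was a predicted miRNA, chr18_24151-3p, with the seed of miR-22-3p, and it is shown to let the pair be compared.
chr18_24151-3p: cAGCTGCCagttgaagacgtgt
Over the 19 bases deposited for miR-22-3p, counted from 1 at the 5′ end, it differed by the substitutions A1C, A18C and C19G. Its precursor was placed on CHIR_1.0 at chr18:3119141-3119220 on the plus strand, with a miRDeep2 score of 0 and a negative randfold result, the test of whether a hairpin folds more stably than shuffled sequence. It was counted from 26 to 66 times per library, against 182733 to 342005 times for miR-22-3p. Whether reads of miR-22-3p contribute to this entry was not tested.

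The name "abundant" fits 4 of the 5 precursors. Normalized counts here are counts divided by the size factor of the library, and a rank is a place by mean normalized count among the 1804 miRNA. miR-22-3p was the most abundant of the arms, with a mean of 246860 and rank 6, followed by miR-186-5p with 201931 and rank 8, miR-191-5p with 161835 and rank 9, and miR-21-5p with 146696 and rank 10. Only 13 miRNA had a mean above 100000, and these 4 are among them. miR-425-5p, with a mean of 548 and rank 157, was far below them, between miR-381 with 557.6 and miR-380-3p with 538.3. The other arms were lower still, apart from miR-21-3p with a mean of 1415 and rank 110. Those means were 173 for miR-22-5p, 110 for miR-191-3p, 43.9 for miR-425-3p and 24.8 for miR-186-3p. The 10 arms together took 11.95% ± 0.73 of the counts of a Control library (SD, n = 4) and 11.44% ± 0.49 of those of an FD library (SD, n = 6).

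The order of the abundant arms was not the same in every goat. miR-22-3p was above miR-181a-5p, the next miRNA down, in 8 of 10 libraries and above miR-26a-5p, the next one up, in 1 of 10. miR-186-5p was above miR-191-5p in 10 of 10 libraries. miR-191-5p was above miR-21-5p in 7 of 10, and miR-21-5p was above miR-27b-3p, its neighbour below by mean, in only 4 of 10. The place of miR-21-5p ranged from 6 to 13 between libraries and that of miR-22-3p from 5 to 7, so the last places of this order do not stand apart from the spread between goats. miR-425-5p was above miR-381 in 4 of 10 libraries and above miR-380-3p in 5 of 10.

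miR-22-3p had the smallest p of the 10 arms between the diets. Its normalized counts in Control goats were 252586 (L01), 283016 (L04), 263970 (L06) and 290562 (L10). In FD goats they ran from 183731 (L08) to 261400 (L03), with a median of 228793. The diets overlapped, with 4 of the 6 FD libraries under every Control library and L03 and L07 among the Control values. The means were 272533 ± 17379 in Control (SD, n = 4) and 229745 ± 29224 in FD (SD, n = 6). The log2 fold change, FD over Control throughout, was -0.26 (SE 0.107, 95% interval -0.50 to -0.03), an estimate of -16.8% with an interval from -29.1% to -2.26%. Its unadjusted p was 0.0283 in the quasi-likelihood test of edgeR and its adjusted p 0.269 (Benjamini-Hochberg over 490 miRNA), so the difference did not pass the threshold of 0.1.

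None of the 10 arms passed that threshold, and 1 of them, miR-22-3p, had an unadjusted p under 0.05. Across all 490 miRNA tested, 0% passed at an adjusted p under 0.1 and 15.7% had an unadjusted p under 0.05, so the share among the arms is not above the background. That count of arms was 3 without L10, where 92 of 481 miRNA had such a p, 0 without L04 (71 of 489), 0 without L06 (50 of 494) and 0 with no filter (178 of 1804). Of the 10 arms, 4 had a log2 fold change above 0 and 6 below, with a median of -0.02. All miRNA tested were split into 245 above and 245 below, with a median of -0.0004. No arm had diets whose values did not overlap, as against 11 of the 490 miRNA. DESeq2 called 26 of the 490 at the same threshold and limma-voom called 0, and neither called an arm. All 10 arms passed the filter on low counts, a highest normalized count above 28, but miR-186-3p did so only through L01 (29.0), L05 (40.0) and L10 (38.4).

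**Figure D1:**
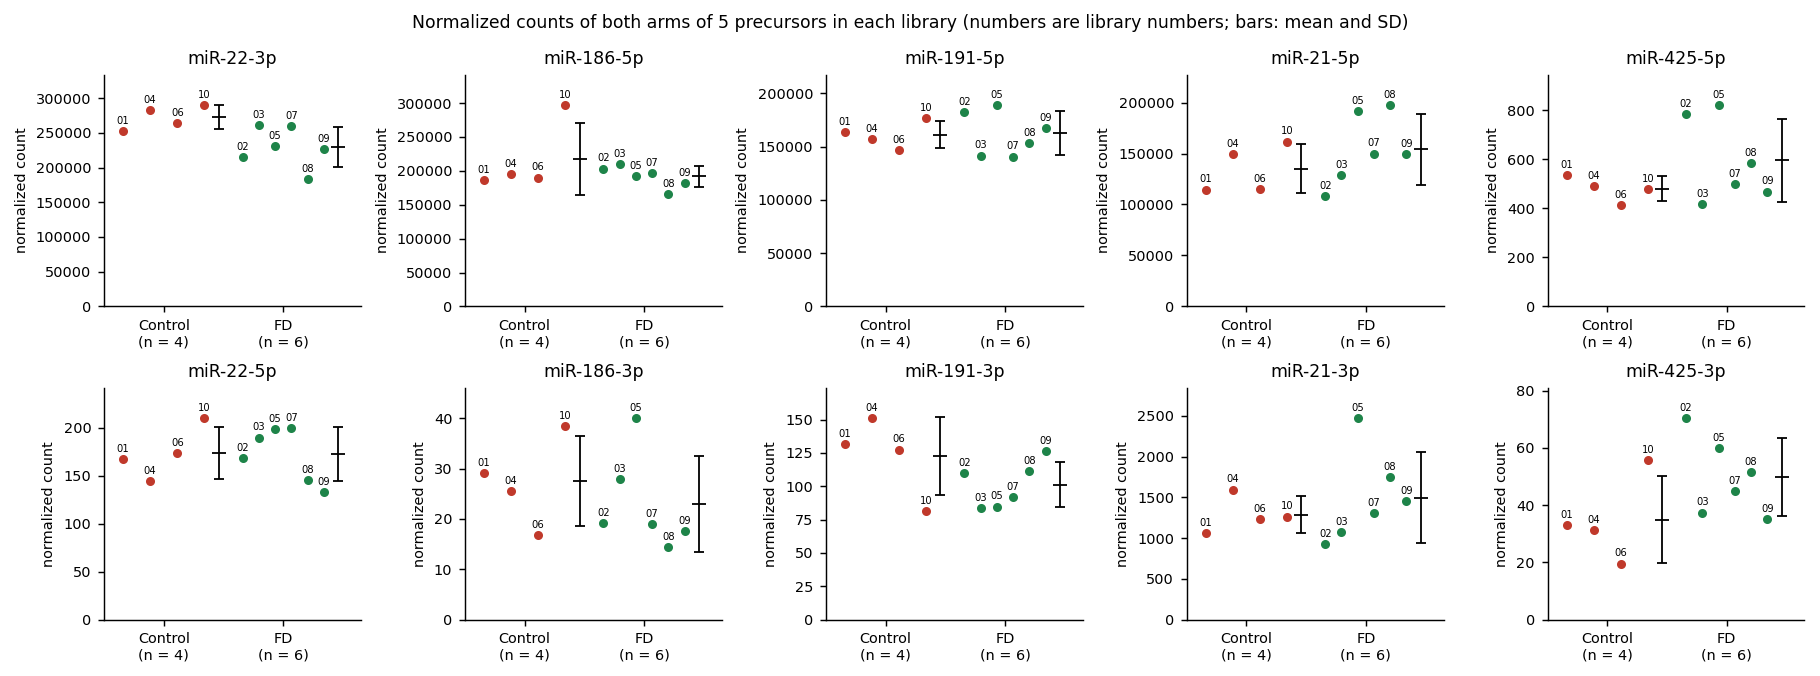
Normalized counts (y axes, starting at 0) of the more abundant arm of each precursor (top row) and of the other arm (bottom row) in 4 Control and 6 FD libraries. Each point is a goat and bears its library number, and the bars beside each group are the mean and SD. The diets overlap in all 10 panels, and L10 stands alone above the other Control libraries for miR-186-5p, at 297521 against 186029 to 195574.

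miR-186-5p was set apart by a single goat. The Control values were 186029 (L01), 195574 (L04), 190079 (L06) and 297521 (L10), and the FD values ran from 165681 (L08) to 209479 (L03) with a median of 194594. L10 was above every other library and the other 3 Control libraries lay within the FD range. The log2 fold change was -0.20 (SE 0.136, edgeR adjusted p = 0.457), and without L10 it was -0.06 (edgeR adjusted p = 0.806), the Control mean falling from 217301 ± 53623 (SD, n = 4) to 190561 ± 4791 (SD, n = 3).

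miR-191-5p was the arm that differed least between the diets. It was at 163863 (L01), 157140 (L04), 146453 (L06) and 176685 (L10) in Control goats. In FD goats it ran from 140542 (L07) to 189217 (L05), with a median of 160190, so all Control values lay inside the FD range. The means were 161035 ± 12659 in Control (SD, n = 4) and 162368 ± 20669 in FD (SD, n = 6). The log2 fold change was -0.0023 with an interval from -0.25 to 0.24 (edgeR adjusted p = 0.996). An interval of that width leaves changes of -15.8% to 18.4% possible, and its sign turned with the scaling.

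miR-21-5p varied widely within both diets. The Control values were 114569 (L01), 149395 (L04), 115084 (L06) and 161664 (L10), in a low and a high pair. The FD values ran from 108584 (L02) to 197859 (L08) with a median of 149809, and L05 and L08 were above every Control library. The log2 fold change was 0.18 (SE 0.180, interval -0.21 to 0.57, edgeR adjusted p = 0.607). Its other arm, miR-21-3p, was at 1289 ± 223 in Control and 1499 ± 557 in FD, with the highest value, 2474, in L05. Its log2 fold change was 0.20 (SE 0.252, edgeR adjusted p = 0.677). Both estimates leaned on single libraries. Without L08 miR-21-5p was at 0.03 (edgeR adjusted p = 0.978) and miR-21-3p at 0.08 (edgeR adjusted p = 0.928). miR-21-3p was at 0.02 without L05 (edgeR adjusted p = 0.952). Without the Control library L01 they were at 0.10 and 0.11.

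miR-425-5p had the highest estimate among the dominant arms. It was at 534 (L01), 491 (L04), 412 (L06) and 479 (L10) in Control goats, and from 415 (L03) to 821 (L05), with a median of 541, in FD goats. L02, L05 and L08 were above every Control library and the other 3 FD libraries were among them. The log2 fold change was 0.30 (SE 0.214, interval -0.16 to 0.77, edgeR adjusted p = 0.457). Both arms of miR-425 had estimates above 0, and that of miR-425-3p was 0.48 (SE 0.295, edgeR adjusted p = 0.437) on means of 35.0 ± 15.1 in Control and 49.9 ± 13.6 in FD. With single libraries left out, miR-425-5p was as low as 0.19 (without L02), and miR-425-3p went from 0.31 (without L06) to 0.75 (without L10).

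The minor arms of miR-191, miR-186 and miR-22 had intervals that included 0. miR-191-3p had 123 ± 29.4 in Control and 101 ± 17.1 in FD, with a log2 fold change of -0.29 (interval -0.72 to 0.14), and -0.49 without L10. miR-186-3p had 27.4 ± 8.94 and 23.0 ± 9.46, with a log2 fold change of -0.30 (interval -1.01 to 0.40), which was -0.14 without L10 and -0.50 without L05. miR-22-5p had 174 ± 27.4 and 173 ± 28.5, with a log2 fold change of -0.03 (interval -0.40 to 0.34). The adjusted p of these 3 arms in edgeR were 0.457, 0.625 and 0.931.

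**Figure D2:**
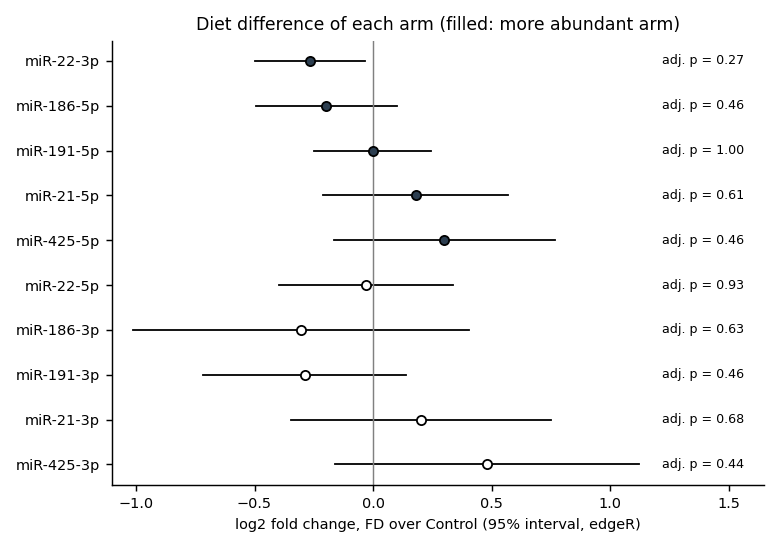
Log2 fold change of each arm, FD over Control (x axis), with its 95% interval from edgeR and the adjusted p at the right. Filled points are the more abundant arm of a precursor. The interval of miR-22-3p, -0.50 to -0.03, is the only one of the 10 that does not cross 0, and its adjusted p is 0.269.

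The use of the arms was then compared as a ratio within each library, which does not depend on scaling. All precursors but miR-425 gave nearly all their counts to a single arm. The geometric mean ratio of the more abundant to the other arm in Control and FD goats was 8100 and 8838 for miR-186, where 5p dominates, 1579 and 1337 for miR-22, where 3p dominates, 1340 and 1612 for miR-191, where 5p dominates, and 105 and 106 for miR-21, where 5p dominates. For miR-425 it was 14.6 and 11.9, so that miR-425-3p made up 6.71% ± 2.56 of the counts of its precursor in Control (SD, n = 4) and 7.78% ± 0.69 in FD (SD, n = 6). Such a ratio also holds any difference in how well each sequence is captured in the library.

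No arm ratio differed between the diets beyond the spread between goats (two-sided exact permutation tests over the 210 assignments of libraries to diets, adjusted over 5 precursors, where the smallest p possible is 0.00476). The ratio of miR-22-3p to miR-22-5p came closest, with a difference of -0.24 on the log2 scale (exact p = 0.1, adjusted p = 0.468). It was 1510 (L01), 1962 (L04), 1520 (L06) and 1382 (L10) in Control, and from 1163 (L05) to 1700 (L09), with a median of 1289, in FD. In this ratio 5 of the 6 FD libraries were under every Control library, and L09 was above all but L04. Without L09 the difference was -0.31 with an adjusted exact permutation p of 0.0397, and without L04 it was -0.14 with an adjusted exact permutation p of 0.869. The differences for the other precursors were 0.02 for miR-21, 0.13 for miR-186, 0.27 for miR-191 and -0.29 for miR-425, with adjusted exact permutation p of 0.914, 0.815, 0.468 and 0.468. Without L10 the difference was 0.50 for miR-191 and -0.55 for miR-425, both with an adjusted exact permutation p of 0.0595. It was 0.14 for miR-191 without L04 and -0.12 for miR-425 without L06, and for miR-186 it ran from 0.01 without L01 to 0.30 without L05.

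**Figure D3:**
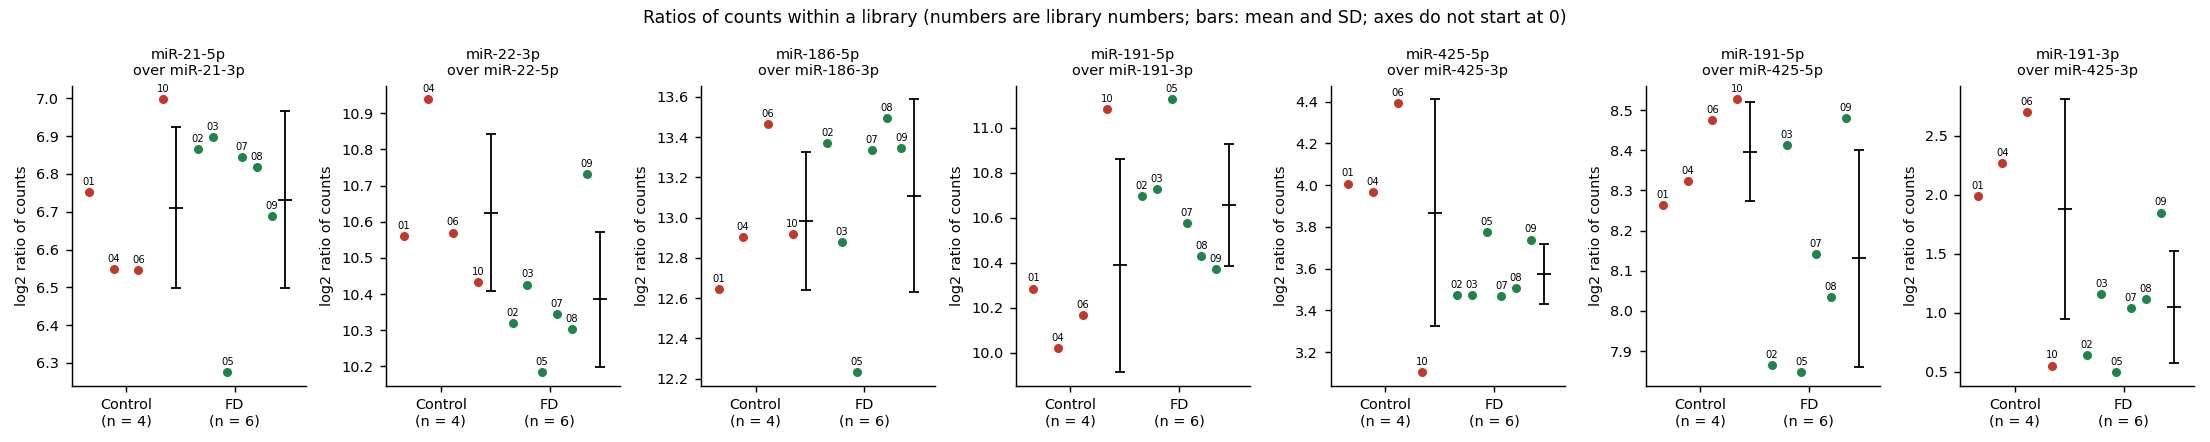
Log2 ratio of counts within a library (y axes, which do not start at 0) for the arms of each precursor and for miR-191 over miR-425. Points are goats with their library numbers, and the bars are the mean and SD of 4 Control and 6 FD libraries. For miR-22-3p over miR-22-5p, 5 FD points lie under all Control points, and for miR-191-3p over miR-425-3p the Control library L10 lies among the lowest FD points.

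The neighbours miR-191 and miR-425 were at very different levels. Between miR-191-5p and miR-425-5p the ratio was from 307 to 369 in Control goats and from 230 to 357 in FD goats, with 4 of the 6 FD libraries under every Control library. The geometric means were 337 and 280, a difference of -0.27 on the log2 scale, which did not pass the threshold of 0.05 (exact permutation p = 0.119, adjusted over 2 ratios 0.119). The 3p arms were much closer to each other. There the ratio was 3.96 (L01), 4.81 (L04), 6.5 (L06) and 1.47 (L10) in Control, and from 1.41 to 3.6 in FD, with geometric means of 3.67 and 2.07. L01, L04 and L06 were above all FD libraries and L10 was near the lowest of them. The difference was -0.83 (exact permutation p = 0.114, adjusted 0.119). Without L10, the Control library nearest to the FD values, it was -1.27 (adjusted exact permutation p = 0.0238). Without L06 it was -0.55 (adjusted exact permutation p = 0.262). These 3p counts were small, down to 72 for miR-191-3p and to 14 for miR-425-3p, so counting error adds to the spread between goats.

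Although they differed in level, miR-191-5p and miR-425-5p were correlated across goats by Pearson's r. By ranks the correlation did not pass 0.05 after adjustment. Pearson's r of log2(normalized count + 1) over the 10 libraries was 0.740 (permutation p = 0.0129, adjusted over 6 pairs 0.0259) and Spearman's rho was 0.527 (permutation p = 0.123, adjusted 0.185). In deviations from the diet means r was 0.802 (adjusted permutation p = 0.0171). Without L05 and L07, the libraries farthest from the median of miR-191-5p, r was 0.671 (permutation p = 0.0622) on fewer libraries. With single libraries left out r ran from 0.610 to 0.841, and its adjusted permutation p was above 0.05 without L02, L03, L05 or L06. L02 and L05 were the highest for both miRNA. Such an r was not particular to the pair. It was higher for miR-191-5p with miR-10b-5p (0.809), miR-340-3p (0.802) and miR-877-5p (0.754). For miR-425-5p it was higher with chr11_16507-3p (0.803), miR-340-3p (0.746) and miR-10b-3p (0.745). All these values share the scaling of the libraries.

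The arms of a precursor did not all follow each other. miR-21-5p and miR-21-3p had r = 0.861 (permutation p = 0.00094, adjusted 0.00564) and rho = 0.855 (permutation p = 0.00276, adjusted 0.0166), and r remained at 0.826 without L02 and L08 (permutation p = 0.00821). miR-425-5p and miR-425-3p had r = 0.754 (adjusted permutation p = 0.0259) and rho = 0.673 (adjusted permutation p = 0.113), with r = 0.566 without L02 and L05 (permutation p = 0.140). In deviations from the diet means r was 0.695 (adjusted permutation p = 0.0508), and the adjusted permutation p was also above 0.05 without L02, L05 or L06. miR-191-5p and miR-191-3p had r = -0.118 and rho = -0.127, with an adjusted permutation p of 0.741 for r. In L05 and L10, for example, miR-191-5p was among its 3 highest values and miR-191-3p among its 3 lowest. For miR-186 r was 0.615 (adjusted permutation p = 0.0565) and fell to 0.138 without L08 and L10, and for miR-22 it was 0.447 (adjusted permutation p = 0.235), or from 0.281 without L08 to 0.687 without L04. Whether these correlations differ from each other was not tested.

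**Figure D4:**
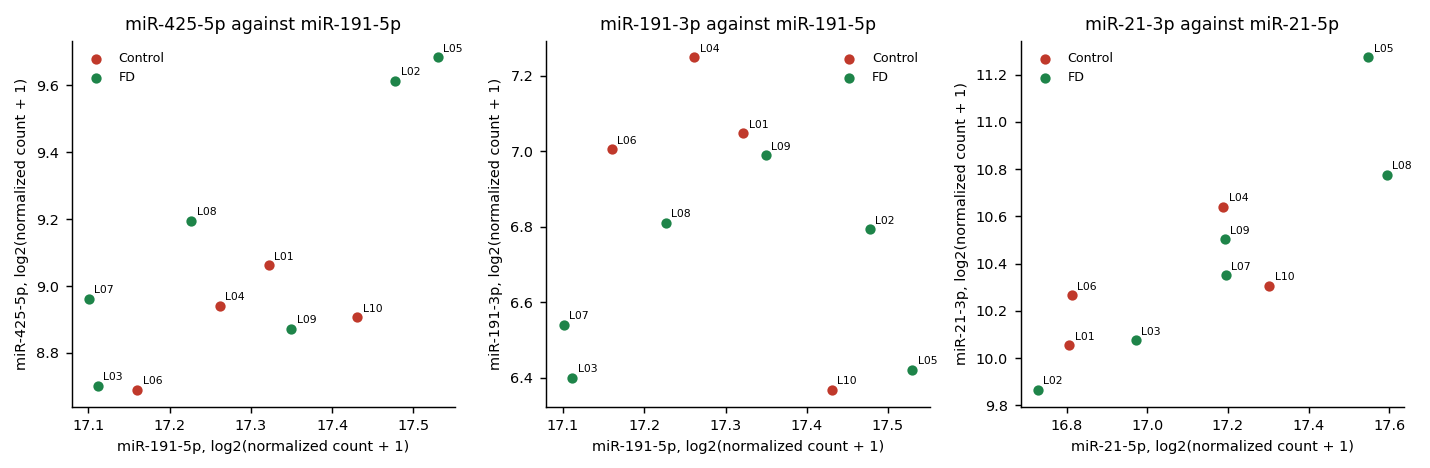
Log2(normalized count + 1) of 2 miRNA against each other, on both axes, with each point a goat labelled by its library and coloured by diet. From left to right r is 0.740 for miR-425-5p against miR-191-5p, -0.118 for miR-191-3p against miR-191-5p and 0.861 for miR-21-3p against miR-21-5p, each over 10 libraries.

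A further product of the miR-191 locus was counted, from the opposite strand. Among the 1070 predicted precursors, chr22_30333 was placed on CHIR_1.0 at chr22:50735145-50735209 on the minus strand, with a miRDeep2 score of 775.5 and a positive randfold result. It is shown as its reverse complement, that is the plus strand, with the bases of miR-191-5p and then of miR-191-3p in capitals.
chr22_30333, plus strand: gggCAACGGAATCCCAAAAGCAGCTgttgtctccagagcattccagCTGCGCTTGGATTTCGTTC
The stretch holds all 22 bases of miR-191-5p and 19 of the 21 of miR-191-3p, so the predicted hairpin is the antisense of the miR-191 hairpin. Its mature product was counted under the horse name miR-191b and has another seed.
miR-191b: gAACGAAAtccaagcgcagctg

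miR-191b was counted from 95 to 245 times per library. Its counts were above those of miR-191-3p, the minor arm of the sense hairpin, or equal to them in 9 of 10 libraries, with a ratio from 0.948 to 2.18 and a median of 1.34. Against the dominant arm it was rare, with 0.697 to 1.08 counts per 1000 of miR-191-5p (median 0.900). The other arm of the antisense hairpin, chr22_30333-3p, had 1 count in L09 and none elsewhere. Between the diets miR-191b was at 147 ± 21.3 in Control (SD, n = 4) and 143 ± 27.9 in FD (SD, n = 6), with a log2 fold change of -0.05 (edgeR adjusted p = 0.890).

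The spread between goats differed widely among the arms. The coefficient of variation over the 10 libraries was 10.5% for miR-191-5p, lower than that of all but 17 of the 490 miRNA tested, and 13.2% for miR-22-3p, lower than all but 41. Taken within the diets the order of these arms turned, with 10.3% for miR-22-3p and 11.2% for miR-191-5p. Abundant miRNA spread less in general. Among the 47 miRNA with a mean above 10000 the median was 15.6%, and 6 of them were lower than miR-191-5p, while over all 490 it was 24.7%. miR-186-5p was at 17.7%, and at 6.64% without L10. miR-21-5p was at 21.2%, above the median of the abundant miRNA, and miR-425-5p at 26.1%. The minor arms ran from 15.3% for miR-22-5p to 36.5% for miR-186-3p.

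Because miR-191-5p is often used as a reference, it was set beside 12 miRNA that are also used so. All 12 were found and tested, 0 passed at an adjusted p under 0.1 in edgeR, and 7 had a log2 fold change above 0, with a median of 0.14. Of the 12, 11 had a larger coefficient of variation than miR-191-5p. The exception was let-7a-5p at 10.3%, and miR-93-5p was the most variable at 23.2%. Within the diets, miR-25-3p, miR-423-5p (10.3%) and let-7a-5p (10.8%) were all below miR-191-5p. The estimate of miR-16a-5p was 0.39 (SE 0.155) and that of miR-423-5p -0.30 (SE 0.118), both with an edgeR adjusted p of 0.269. A coefficient computed after scaling to the library also holds the error of the size factor.

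**Figure D5:**
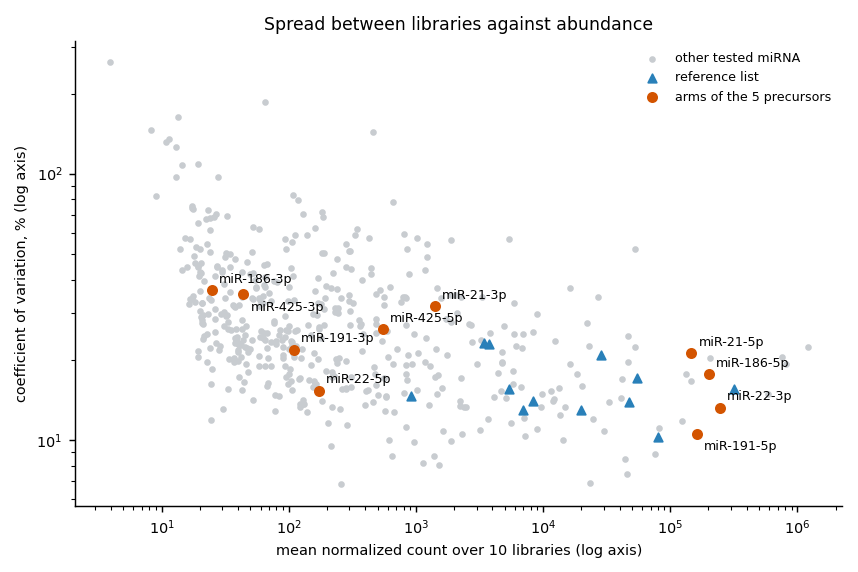
Coefficient of variation over the 10 libraries (y axis, log scale) against mean normalized count (x axis, log scale) for the 490 miRNA tested. Orange points are the arms of miR-21, miR-22, miR-186, miR-191 and miR-425, blue triangles the 12 reference miRNA, and grey points the others. miR-191-5p lies at 10.5%, near the lower edge, and miR-21-5p at 21.2% is higher than other arms of like abundance.

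The miRNA most like each dominant arm across the 10 libraries were listed by Pearson's r, leaving out the other arm of its own precursor, as a description with no test. That arm would have come second for miR-21-5p (miR-21-3p, 0.861) and for miR-425-5p (miR-425-3p, 0.754). For miR-21-5p they were miR-455-5p (0.885), miR-130b-3p (0.858) and miR-15a-5p (0.849). For miR-186-5p they were miR-19b-3p (0.893), miR-19a (0.853), both of the miR-17-92 cluster, and miR-30e-5p (0.776). miR-340-3p appeared for both miR-191-5p (0.802) and miR-425-5p (0.746). So did the miR-10b hairpin, by its 5p arm for miR-191-5p (0.809) and its 3p arm for miR-425-5p (0.745). For miR-191-5p the third was miR-877-5p (0.754), and for miR-425-5p the highest was the predicted chr11_16507-3p (0.803). For miR-22-3p the leading entries were 3 predicted miRNA, chr3_3319-5p (0.834), chr20_28040-3p (0.816) and chr18_24151-3p (0.792), the last being the entry that has its seed. In deviations from the diet means r with miR-22-3p was 0.687, 0.779 and 0.659 for these 3. Each entry was picked for the size of its r among the 490 miRNA tested, and all values share the scaling of the libraries.

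The tissue was checked with miRNA known to mark its cell types. Epithelial markers, led by miR-141 with a mean of 123668, summed to 236413 ± 12730 in Control and 218510 ± 23708 in FD, with 9 of 10 markers found and miR-375-3p having no entry. Stromal markers, led by miR-143-3p with a mean of 763364, summed to 754265 ± 115302 and 821289 ± 192111, so that both compartments of the gland were present. Of 7 stromal markers 6 were found, miR-199a-3p having no entry. Estimates were above 0 for 5 of them and -0.15 for miR-145-5p. Leukocyte markers, led by miR-146b-5p, summed to 56868 ± 14564 and 74864 ± 32846, with 6 of 8 found and neither arm of miR-142 having an entry. The leukocyte sum was highest in L07 (131793) and lowest in L10 (35827), the library where miR-186-5p was highest. L10 also had the highest epithelial sum (254349). Whether these go together with miR-186-5p was not tested. None of the markers passed at an adjusted p under 0.1 in edgeR. At an unadjusted p under 0.05, which 15.7% of all miRNA tested had, there were 4 leukocyte markers, both endothelial markers (miR-126-3p and miR-126-5p) and 1 erythroid marker, miR-451-5p, all with estimates above 0. Of the other leukocyte markers, miR-155-5p was at -0.12 and miR-146b-5p at 0.37. There were also 2 epithelial markers with estimates below 0, miR-200b and miR-429 (both -0.34), while 4 of the 9 epithelial markers found had estimates above 0, such as miR-205-5p at 0.41. The part of cell make-up in the values of miR-22-3p, miR-21-5p and the other arms was not tested.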

How the data were processed

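Small RNA of 10 mammary glands was sequenced as single reads of 50 bases. Adapters were trimmed by the authors (Cutadapt), reads of 17 to 28 bases were placed on CHIR_1.0, the goat genome build used, and reads were counted with the miRDeep2 quantifier on known (miRBase 21) and predicted precursors. CASAVA 1.8.2 is named in the submitters' processing notes. The deposited counts per mature miRNA were used as they stand, and the deposited normalized columns were not. The miRDeep2 score and read count of each predicted precursor, deposited by the authors, come from all libraries pooled. No molecular identifiers are described, so reads copied by PCR were counted as separate.

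Size factors were those of DESeq2 1.42.0 on 1804 miRNA. The 490 miRNA with a highest normalized count above 28 were tested with edgeR 4.0.16 (TMM, quasi-likelihood, two-sided), adjusted after Benjamini-Hochberg, with the study's threshold of 0.1. Ratios (threshold 0.05) were tested by exact permutation and correlations by 100000 permutations. In simulated data of 490 miRNA, 200 of them changed, edgeR recovered 44% of changes of 1.5-fold, 87.5% of 2-fold and 99% of 3-fold. Of its calls 6.38%, 6.91% and 4.35% were false. Changes smaller than 1.5-fold, and data with fewer miRNA changed, were not simulated, so these shares do not give the recovery in the real data.

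The members, lists and tests were chosen with earlier results of these data known. Named miRNA were all arms of the 5 precursors, their neighbours in abundance, those sharing a seed, the 3 most alike to each dominant arm, and the reference and marker lists. miR-191b and chr22_30333 were named after their values were seen. Alternatives were DESeq2 with a prior, limma-voom (limma 3.58.1), other scalings and filters, libraries drawn down to the smallest total, and each library left out. R was 4.3.3, Python 3.11.15, scipy 1.17.1, numpy 2.4.6, pandas 2.3.3 and matplotlib 3.10.9.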

Additional observations from a re-analysis of the deposited data

Results flagged for a closer look

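miR-186-5p in the Control library L10 had a normalized count of 297521, far from the other 3 Control libraries at 186029 to 195574. The gap was 0.914 of the range of the 4 libraries. L10 also had the highest value of the Control libraries for miR-22-3p, miR-191-5p and miR-21-5p, by smaller gaps.

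The ratio of miR-191-3p to miR-425-3p in the FD library L09 was 3.6, above the other 5 FD libraries at 1.41 to 2.23, with a gap of 0.626 of the range. In all, 34 groups of values were examined for such gaps and 2 were found, where chance gives about 1 in 20.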

How the results depend on the processing

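In all 19 alternatives 0 arms passed at an adjusted p under 0.1, with 10 arms tested in each except the libraries drawn down to the smallest total, where miR-186-3p was filtered out and 9 were tested. miR-22-3p stayed below 0, at -0.35 to -0.23 over all of them (adjusted p 0.170 to 0.502 in edgeR, DESeq2 or limma-voom). The number of all miRNA called was 26 with DESeq2, 5 without a filter, 1 without L02 and 0 in the other fits. The sign of the smallest estimates turned. miR-191-5p had a log2 fold change of 0.0114 with DESeq2, 0.0119 with size factors, 0.0344 with library totals, 0.0182 without a filter and -0.0518 to 0.0481 with 1 library left out. With 1 library left out miR-21-5p ran from 0.03 to 0.25 and miR-21-3p from 0.02 to 0.30. miR-22-5p had 0.0131 with library totals and -0.129 to 0.0296 with 1 library left out. In all, 9 alternative fold changes turned their sign and 180 kept it and their side of the threshold.

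With 1 library left out, the difference between diets in the log2 ratio ranged from -0.034 to 0.116 for miR-21-5p over miR-21-3p, from -0.31 to -0.136 for miR-22-3p over miR-22-5p (passing without L09) and from -1.27 to -0.552 for miR-191-3p over miR-425-3p (passing without L10). It ranged from 0.01 to 0.30 for the arms of miR-186, from 0.14 to 0.50 for those of miR-191 and from -0.55 to -0.12 for those of miR-425. The correlation ranged from 0.459 to 0.782 for the arms of miR-186, passing without L01 (0.673) and without L05 (0.782), and from -0.356 to 0.114 for those of miR-191, which had 0.150 on counts per library total, where the arms of miR-22 had 0.221. For the arms of miR-425 it ranged from 0.661 to 0.842 and no longer passed without L02, L05 or L06, nor in deviations from the diet means (0.695, adjusted permutation p = 0.0508). For miR-191-5p with miR-425-5p it ranged from 0.610 to 0.841 and no longer passed without L02, L03, L05 or L06. The cause of these shifts was not tested. Counts under 100 per library for miR-186-3p and miR-425-3p limit every value built on them.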

Other observations

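Among the 5 dominant arms taken in pairs over the 10 libraries, r of log2(normalized count + 1) was 0.633 for miR-22-3p with miR-186-5p and -0.538 for miR-22-3p with miR-425-5p. Apart from miR-191-5p with miR-425-5p, the other pairs lay between -0.299 and 0.269. These are descriptions of libraries that share a scaling, with no test.

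The 2 endothelial markers, led by miR-126-5p, summed to 133853 ± 12350 in Control and 168383 ± 23642 in FD. The 3 erythroid markers found, led by miR-451-5p, summed to 5075 ± 1034 and 7004 ± 1018, with miR-486-5p having no entry.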
